A study of Homo sapiens with 6 samples.

Results

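The genes described here are the transcriptional coactivators YAP1 and WWTR1 (TAZ), their DNA-binding partners TEAD1 and TEAD3, and genes known as their targets or regulators: LATS2, AMOTL2, AJUBA, ANKRD1, CCN2 (CTGF) and CCN1 (CYR61). They were listed by name rather than by a threshold on measured values, though with earlier results of these data known, and make 10 of the 58735 genes in the count table. All 10 were among the 15341 genes tested. RNA was sequenced from UE7T-9 cells, an established line of human bone marrow mesenchymal stem cells, in 3 Control libraries labelled WT and 3 libraries labelled SRRM4 KO. In the KO cells, SRRM4, a regulator of neural microexon splicing, was targeted with a lentiviral CRISPR v2 vector. All cells were grown in DMEM, and no further treatment was named. The KO line was cloned by limiting dilution after puromycin selection, so that the 3 KO libraries came from 1 clone, and whether the Control cells carried a vector was not stated in the labels or methods, although the study's discussion names lentiviral infection as a possible source of alteration in the control line. Clone and genotype therefore cannot be told apart. By flow cytometry in the study the SRRM4 protein was lower in the KO line, without complete loss being established. SRRM4 RNA had 0 counts in all 6 libraries, Control included, so that the counts did not check the labels.

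In the Hippo pathway, the kinases STK3 and STK4 (MST2 and MST1) activate LATS1 and LATS2, which phosphorylate YAP and TAZ and thereby hold them in the cytoplasm or mark them for degradation. Unphosphorylated YAP and TAZ enter the nucleus and bind TEAD factors at promoters and enhancers. Their targets include secreted matrix proteins such as CCN1 and CCN2, the muscle ankyrin repeat protein ANKRD1, and the pathway's own inhibitors LATS2 and AMOTL2, which form negative feedback. In mesenchymal stem cells YAP and TAZ respond to substrate stiffness, cell shape and actin tension. Much of this regulation acts on the proteins, their phosphorylation and their location, none of which RNA counts measure.

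TEAD factors recognise the letters GGAATG, and the promoters of several of these genes hold them close to the transcription start. The set of RefSeq promoters used (GRCh38.p14, from 250 bases before to 50 after a start) held 8 of the 10 genes, with 11 starts in all. CCN1 and TEAD1 had no entry in this set, which does not mean that they lack an annotated start. GGAATG on either strand stood in a promoter of 6 of these 8 genes, against 16.7% of 27305 genes with a promoter, or 14.0% of 35116 promoters. The stretches that hold it are shown for these 6 genes, since the results below set them side by side: CCN2 from chr6:131951447-131951556 (minus strand), ANKRD1 from chr10:90921195-90921322 (minus), YAP1 from chr11:102110270-102110305 (plus), AMOTL2 from chr3:134374496-134374531 (minus), AJUBA from chr14:22976881-22976916 (minus) and LATS2 from chr13:21061560-21061589 (minus). All are written 5′ to 3′ on the gene's strand, and the capitals mark GGAATG or its reverse complement CATTCC.
CCN2: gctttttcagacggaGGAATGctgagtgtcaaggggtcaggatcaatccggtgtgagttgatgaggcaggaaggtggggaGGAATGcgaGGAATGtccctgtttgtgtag
ANKRD1: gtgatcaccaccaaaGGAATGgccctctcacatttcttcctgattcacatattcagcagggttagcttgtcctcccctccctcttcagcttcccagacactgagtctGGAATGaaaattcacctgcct
YAP1: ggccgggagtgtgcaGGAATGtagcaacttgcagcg
AMOTL2: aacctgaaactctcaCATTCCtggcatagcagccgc
AJUBA: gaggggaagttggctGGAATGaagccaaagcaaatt
LATS2: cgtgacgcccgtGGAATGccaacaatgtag

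CCN2 held the most matches, with 3, their first bases at −169, −104 and −95 from the start. ANKRD1 held 2, at −220 and −128. The single matches lay at −162 in YAP1, at −69 from one of the starts of AMOTL2, at −59 from one of the starts of AJUBA and, downstream of the start, at 10 in LATS2. The AP-1 motif TGANTCA, whose 2 strands read alike, stood only in the ANKRD1 promoter, at −195, against 7.71% of all promoters, without overlapping GGAATG. None of the 11 promoters held the CArG box bound by SRF, which 1.29% of all promoters hold. These matches describe the letters in the window, not binding.

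The 6 libraries held 21496117 to 23868323 gene counts, so that 3 counts, the floor used here, correspond to 0.123 to 0.139 CPM, the usual depth-scaled count, here on library sizes adjusted by the trimmed mean of M values (TMM). Control 1 stood apart from the other Control libraries: the chi-square of its gene counts per degree of freedom was 20.9 against Control 2 and 21.4 against Control 3, whereas Control 2 and Control 3 gave 5.44 and the KO pairs 4.93 to 9.13. Control 1 also had a count for 22403 genes, against 20127 to 20674 in the others. The study's methods speak in general of repeated experiments but do not say that the libraries of a group came from separate cultures. The p-values thus weigh the group difference against the spread between these libraries, which may be technical. A gene is said to have risen or fallen where the adjusted p (edgeR's quasi-likelihood test, Benjamini-Hochberg over all genes tested) was under 0.05, and to be called where the log2 fold change also passed 1 in either direction.

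Of the 10 genes, 5 fell in SRRM4 KO cells (YAP1, TEAD1, LATS2, AMOTL2 and CCN2), 2 rose (ANKRD1 and CCN1) and 3 did not pass the test (WWTR1, TEAD3 and AJUBA). Of all genes tested, 20.9% fell and 20.7% rose. The median log2 fold change of the 10 was −0.24, against −0.01 over all genes. Only LATS2 was called lower, where 7.14% of all genes were. None was called higher by edgeR or DESeq2, where 5.45% of all genes were, and the 2 that rose were also the only ones higher at an unadjusted p under 0.05. The CPM ranges of the groups did not overlap for 7 of the 10, against 51.8% of all genes.

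**Figure D1:**
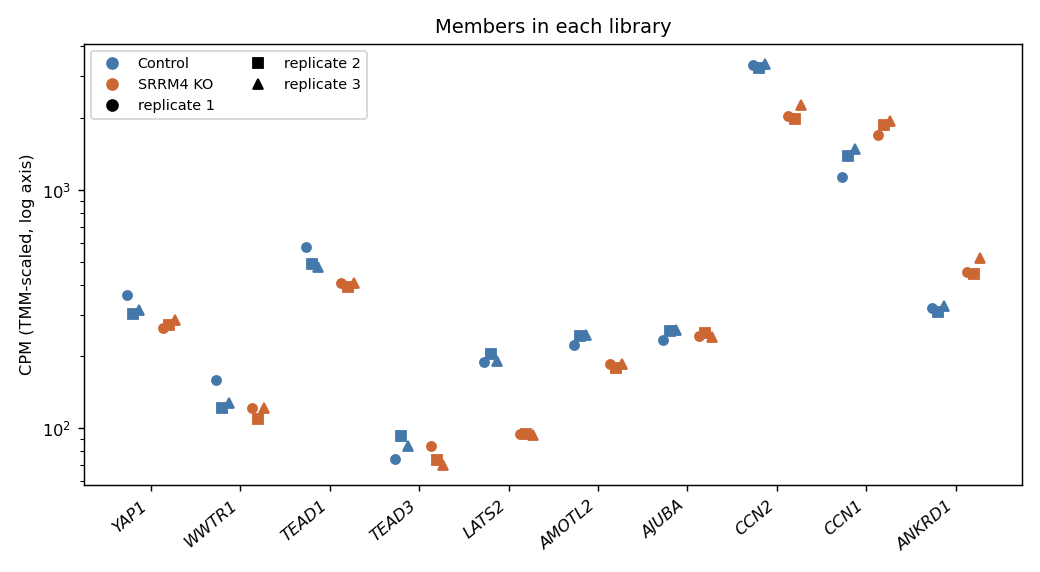
CPM (TMM-scaled) of each of the 10 genes in the 6 libraries, with bars at the group means. LATS2 and CCN2 show the widest gaps below Control, CCN1 and ANKRD1 lie above Control in every KO library, and WWTR1, TEAD3 and AJUBA overlap.

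**Figure D2:**
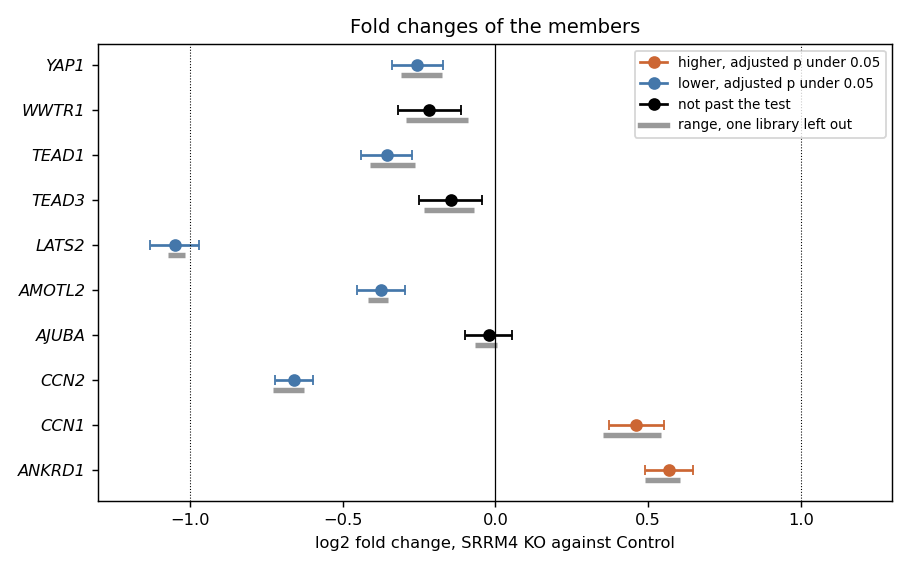
Log2 fold change of SRRM4 KO against Control for each gene with its standard error (whiskers). Grey bars show the range when each library was left out in turn; dotted lines mark a log2 fold change of 1 in either direction, which only LATS2 at −1.05 passed.

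YAP1 (ENSG00000137693, chr11:102110461-102233423, plus strand, GRCh38), the coactivator that gives the pathway its readout, was modestly lower in KO cells. It stood at 361, 301 and 313 CPM in Control 1 to 3 and at 263, 270.3 and 283 CPM in KO 1 to 3. Every KO library lay below every Control library, and Control 1 was the highest of all. The Control mean of 325 ± 31.5 CPM and the KO mean of 272 ± 10.3 CPM (± SD, n = 3 throughout) gave a log2 fold change of −0.26 (SE 0.084, edgeR adjusted p = 0.023). YAP1 no longer passed the test without KO 1 (log2 fold change −0.24, adjusted p = 0.0934) or without KO 2 (−0.26, adjusted p = 0.0769), with folds close to that of all libraries. It passed with each other library left out, and the adjusted p ranged from 0.0113 to 0.0934 over the alternatives run.

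WWTR1 (ENSG00000018408, chr3:149517235-149736714, minus strand) encodes TAZ, the paralog of YAP. Its level was 159.5, 122 and 128 CPM in Control and 122, 109 and 121 CPM in KO. Control 1 was again the highest, and the other Control libraries lay near the KO range. The log2 fold change of −0.22 (SE 0.10) did not pass the test (edgeR adjusted p = 0.108), and it was −0.09 without Control 1. The ratio of YAP1 to WWTR1 per length, taken within each library and so free of library scaling, was 3.02, 3.29 and 3.27 in Control and 2.88, 3.31 and 3.12 in KO, with overlapping groups. YAP1 thus made up 76.1% ± 0.874 of the pair's summed CPM per kb in Control and 75.6% ± 1.3 in KO.

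TEAD1 (ENSG00000187079, chr11:12674591-12944483, plus strand), a DNA-binding partner of YAP and TAZ, fell. It stood at 579, 486 and 474 CPM in Control and at 407, 389.9 and 406 CPM in KO. The groups did not overlap, Control 1 was the highest, and the KO libraries lay close together. The means of 513 ± 57.2 and 401 ± 9.43 CPM gave a log2 fold change of −0.36 (SE 0.083, edgeR adjusted p = 0.00294), and −0.26 without Control 1 (adjusted p = 0.000484, within 0.000125 to 0.0198 over the alternatives).

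TEAD3 (ENSG00000007866, chr6:35473597-35497076, minus strand), another member of the TEAD family, did not pass the test. It stood at 74.5, 92.8 and 84.5 CPM in Control and at 84.1, 73.2 and 70.1 CPM in KO. Here Control 1 was the lowest Control library, opposite to its place for YAP1, WWTR1 and TEAD1, and the groups overlapped. The log2 fold change was −0.15 (SE 0.10, edgeR adjusted p = 0.281), which was −0.07 without Control 2 (adjusted p = 0.678) and passed the test at −0.23 without Control 1 (adjusted p = 0.0341, within 0.0341 to 0.678 over the alternatives).

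LATS2 (ENSG00000150457, chr13:20973032-21061547, minus strand), the kinase that phosphorylates YAP and TAZ and is itself induced by them, showed the largest change among the 10 genes. Its level was 189.8, 205 and 191 CPM in Control and 94.3, 95.0 and 93.8 CPM in KO. The groups were far apart and each was tight, with an SD of 8.59 CPM in Control and 0.611 CPM in KO. The log2 fold change of −1.05 (SE 0.080, edgeR adjusted p = 6.52e-08) is a 2.07-fold lower level, and LATS2 stood at percentile 7.99 of the fold changes of all genes tested. Leaving out any library gave −1.07 to −1.02, but the gene was not called when the test was made against a fold of 2 itself (edgeR's glmTreat). LATS2 lies on chromosome 13, whose 272 genes in the test had a median of −0.27 on the log2 scale; the part of this shift in the LATS2 value was not tested.

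AMOTL2 (ENSG00000114019, chr3:134355874-134375479, minus strand), an angiomotin that binds YAP and retains it at junctions, is a known YAP target as well. It stood at 224, 244 and 245 CPM in Control and at 185, 179 and 186 CPM in KO. Every KO library lay below every Control library. The means of 238 ± 11.97 and 183 ± 3.98 CPM gave a log2 fold change of −0.37 (SE 0.077, edgeR adjusted p = 0.00116).

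AJUBA (ENSG00000129474, chr14:22971174-22982642, minus strand), a LIM domain protein that binds LATS kinases and restrains them at tense junctions, was level between the groups within their spread. It stood at 234, 255 and 259 CPM in Control and at 244, 250.04 and 242 CPM in KO. The KO libraries lay inside the Control range. The log2 fold change was −0.02 (SE 0.076, edgeR adjusted p = 0.845), and its sign turned without Control 3.

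CCN2 (ENSG00000118523, chr6:131948176-131951373, minus strand), a secreted matricellular protein and a standard readout of YAP and TEAD, fell. It stood at 3348, 3231 and 3373 CPM in Control and at 2042, 1988 and 2269 CPM in KO. The Control libraries differed little, all KO libraries lay well below them, and KO 3 was the highest of these. The means of 3317 ± 75.8 and 2100.0 ± 149 CPM gave a log2 fold change of −0.66 (SE 0.063, edgeR adjusted p = 7.3e-07), a 1.58-fold lower level. Per length, CCN2 was the most abundant of the 10 genes in both groups, at rank 7 of all genes tested in Control and rank 12 in KO.

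CCN1 (ENSG00000142871, chr1:85580761-85583962, plus strand), a close relative of CCN2 and a target of YAP and TEAD as well, rose. It stood at 1131, 1387 and 1485 CPM in Control and at 1693, 1878 and 1938 CPM in KO. The groups did not overlap, and Control 1 was the lowest library. The means of 1334 ± 183 and 1837 ± 128 CPM gave a log2 fold change of 0.46 (SE 0.090, edgeR adjusted p = 0.000704), a 1.38-fold higher level, and 0.35 without Control 1 (adjusted p = 1.72e-05, within 2.29e-09 to 0.00692 over the alternatives).

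ANKRD1 (ENSG00000148677, chr10:90912096-90921276, minus strand), whose protein binds titin in muscle and acts in the nucleus, rose like CCN1. It stood at 319, 308 and 325 CPM in Control and at 452, 444 and 517 CPM in KO. The Control libraries lay close together, and KO 3 was the highest. The means of 317 ± 8.81 and 471 ± 40.3 CPM gave a log2 fold change of 0.57 (SE 0.079, edgeR adjusted p = 3.35e-05), a 1.48-fold higher level.

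CCN2 thus moved the opposite way to CCN1 and ANKRD1, and both ratios within a library were lower in KO cells. CCN2 stood to CCN1, both per length, at 3.11, 2.44 and 2.38 in Control and at 1.27, 1.11 and 1.23 in KO, and Control 1 held the highest ratio. The ratio of CCN2 to ANKRD1 was 8.88, 8.88 and 8.77 in Control and 3.82, 3.79 and 3.71 in KO. Its means were 8.85 ± 0.0629 and 3.78 ± 0.0573. In KO 3 both genes were above their group's mean, CCN2 by 0.11 and ANKRD1 by 0.14 on the log2 scale, and the ratio stayed near those of the other KO libraries. No test was made on the ratios. Reads were from bulk cultures, in which fewer cells expressing a gene and less RNA per cell cannot be told apart.

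**Figure D3:**
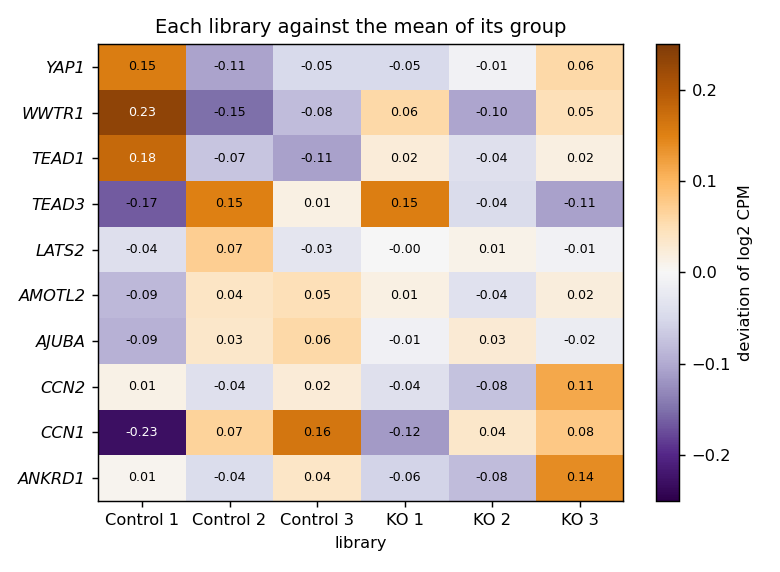
Deviation of log2 CPM from the group mean, by gene and library. Control 1 was above its group for YAP1 (0.16), WWTR1 (0.23) and TEAD1 (0.18) and below it for CCN1 (−0.23) and TEAD3 (−0.17); LATS2 ran from −0.04 to 0.07.

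Per length, in CPM per kb of the gene length in the table, the levels in Control ran from CCN2 (1418 ± 32.4) through CCN1 (543 ± 74.5), ANKRD1 (160.3 ± 4.45), YAP1 (51.6 ± 5.01), TEAD1 (49.9 ± 5.56), AJUBA (41.7 ± 2.28), AMOTL2 (39.7 ± 2.00), LATS2 (35.0 ± 1.54) and TEAD3 (27.6 ± 3.01) to WWTR1 (16.2 ± 2.39). YAP1 and TEAD1, and AJUBA and AMOTL2, were neighbours in this order whose means lay within their spread between libraries. Within each Control library the first gene of each pair was the higher. In KO cells CCN2 was at 898 ± 63.7 and CCN1 at 748 ± 52.0 CPM per kb, so the gap between the pair narrowed without a change of order. LATS2 moved from above TEAD3 to below it, at 16.9 ± 0.110 against 24.9 ± 2.42 CPM per kb. TEAD1 moved from above AJUBA to below it, at 39.0 ± 0.918 against 41.0 ± 0.688 CPM per kb.

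Among the paralogs, TEAD1 gave the largest part of TEAD RNA, 54.1% ± 5.50 of the family's CPM per kb in Control and 52.5% ± 1.42 in KO. TEAD3 gave 29.9% ± 3.22 and 33.5% ± 2.15. These shares depend on dividing by length: in CPM alone TEAD1 gave 80.8% and 79.8%, and TEAD3 13.3% and 15.1%. The sum over TEAD1 to TEAD4 was 92.3 ± 2.59 CPM per kb in Control and 74.3 ± 2.52 in KO. TEAD2 fell from 14.8 ± 1.56 to 8.09 ± 0.610 CPM (log2 fold change −0.87, edgeR adjusted p = 0.000239). TEAD4 stood at 22.4 ± 3.55 CPM in Control and 17.5 ± 1.14 CPM in KO and did not pass the test (adjusted p = 0.0516); it did without Control 1, at −0.48 (adjusted p = 0.00329), with upper quartile scaling (0.0371) and with a minimum of 10 counts in every library (0.0435), and without Control 2 it was at −0.26 (0.214).

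Of the LATS kinases, LATS2 fell and LATS1 did not pass the test. LATS1, the other kinase that phosphorylates YAP, stood at 50.5 ± 9.58 CPM in Control and 50.4 ± 3.16 CPM in KO (log2 fold change −0.003, SE 0.123, edgeR adjusted p = 0.989), and without Control 1, its highest Control library, the fold change was 0.16 and did not pass the test either. The ratio of LATS2 to LATS1 per length was 4.78, 7.12 and 6.55 in Control and 3.12, 2.78 and 2.83 in KO, with Control 1 the lowest of its group. LATS1 gave 14.3% ± 2.65 of the pair's CPM per kb in Control and 25.6% ± 1.17 in KO.

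Among the angiomotins, which tether YAP at junctions, AMOTL2 fell and AMOTL1 rose narrowly past the test. AMOTL1 stood at 135 ± 1.19 CPM in Control and 157 ± 3.84 CPM in KO (log2 fold change 0.22, edgeR adjusted p = 0.0352). AMOTL1 kept a fold of 0.19 to 0.23 with any library left out, but of these fits passed the test only without Control 1. The adjusted p was 0.082 without Control 2, 0.0945 without Control 3, and 0.0843, 0.155 and 0.101 without KO 1, 2 and 3. It was 0.0648 with upper quartile scaling, 0.0785 with no filter and 0.0932 with a block for the replicate number. The ratio of AMOTL2 to AMOTL1 per length was 2.80, 2.99 and 3.04 in Control and 2.03, 1.86 and 1.98 in KO. AMOT, at 20.1 ± 0.450 CPM in Control and 23.5 ± 1.35 CPM in KO, did not pass the test (adjusted p = 0.136).

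**Figure D4:**
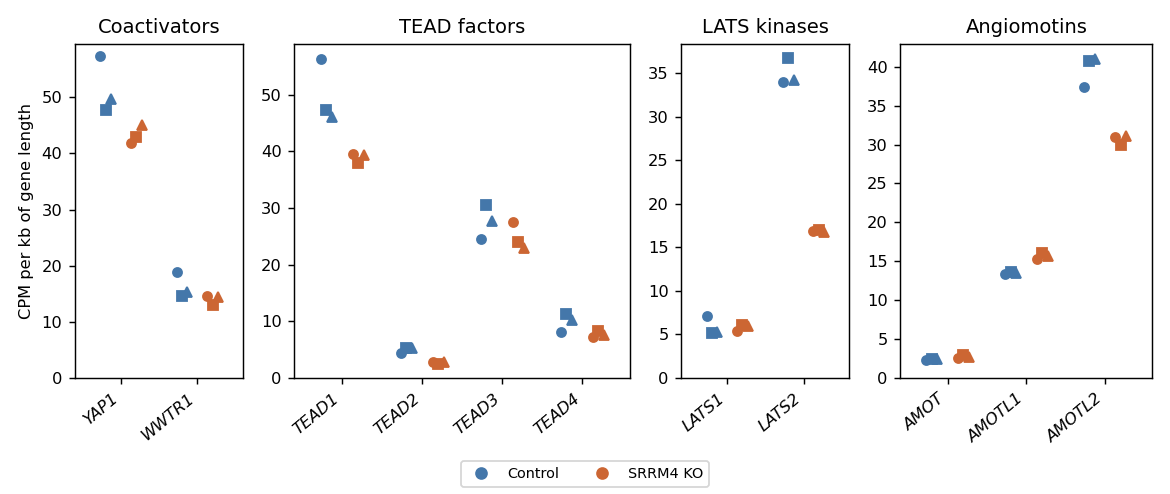
CPM per kb of the paralogs in the YAP, TEAD, LATS and AMOT families, by library. LATS2 drops toward LATS1 in KO cells, while YAP1 stays above WWTR1 and TEAD1 stays above the other TEADs in all 6 libraries.

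Of the VGLL cofactors, which bind TEADs as YAP does, VGLL3 and VGLL4 could be tested, and both fell. VGLL4, a repressor of TEAD targets, fell from 82.7 ± 6.10 to 48.5 ± 0.752 CPM (log2 fold change −0.77, edgeR adjusted p = 7.24e-06). VGLL3, a TEAD cofactor, fell from 427 ± 51.7 to 316 ± 11.2 CPM (−0.43, adjusted p = 0.000981). With TEAD2, these were the 3 of 4 tested genes of the list of other TEADs and VGLL cofactors that fell, where 20.9% of all genes did. The list's median log2 fold change was −0.60, and VGLL1 and VGLL2 were too low to test.

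In the list of the Hippo kinase core, which holds LATS1, its cofactors and the kinases upstream, 1 of 10 genes rose and 1 fell, where 20.7% and 20.9% of all genes did, with a median of −0.05. Without Control 1, 3 rose and 2 fell. STK4, an activating kinase, rose from 65.0 ± 1.83 to 84.4 ± 4.86 CPM (log2 fold change 0.38, edgeR adjusted p = 0.00288). Its paralog STK3 stood at 25.1 ± 4.53 and 31.0 ± 4.44 CPM (log2 fold change 0.30, adjusted p = 0.101), which was 0.17 without KO 3 (adjusted p = 0.408) and passed the test at 0.46 without Control 1 (adjusted p = 0.00374, within 0.00374 to 0.408 over the alternatives that test at no fold). The gene that fell was MAP4K4, a parallel LATS-activating kinase, at −0.34, named here after its values were seen. Of 16 upstream and junction regulators, 4 rose, 6 fell and the median was −0.16, beside the same 20.7% and 20.9% over all genes. The number that rose was 1 without Control 2, KO 1 or KO 3, and 2 without Control 3 or KO 2 or with upper quartile scaling. Those that rose, all but AMOTL1 named after their values were seen, were AMOTL1, NF2 (0.30), a membrane scaffold of LATS kinases, WWC1 (0.52), which binds NF2, and LIMD1 (0.37), a relative of AJUBA. Those that fell included, besides DCHS1 and also named after their values were seen, WWC2 (−0.49), a paralog of WWC1, WTIP (−0.49), a relative of LIMD1, and FAT4 (−0.43) and FRMD6 (−0.31). The only regulator called was DCHS1, an atypical cadherin, lower at 5.39 ± 0.559 against 2.27 ± 0.453 CPM (−1.25, adjusted p = 0.000676), where 7.14% of all genes were called lower. With glmTreat DCHS1 was not called.

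Among 17 other genes known as YAP and TAZ targets, 7 rose and 7 fell, beside 20.7% and 20.9% of all genes. The median log2 fold change was −0.25. IGFBP3, a secreted binding protein for insulin-like growth factors, was called lower, at 145, 157 and 141 CPM in Control and 43.8, 50.1 and 50.3 CPM in KO (log2 fold change −1.62, edgeR adjusted p = 3.23e-09). NUAK2, a kinase of the AMPK family that promotes actomyosin contraction, was called higher, at 10.8, 10.3 and 10.1 CPM in Control and 21.1, 22.9 and 21.6 CPM in KO (1.07, adjusted p = 7.41e-06). With glmTreat IGFBP3 kept its call and NUAK2 lost it. Over all genes 7.14% were called lower and 5.45% higher.

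AP-1 often occupies enhancers together with TEADs, and 3 of its 8 subunits rose and 1 fell, beside 20.7% and 20.9% of all genes, with a median of 0.17. The number that fell was 3 without Control 1, and 2 with upper quartile scaling, with no filter or with a minimum of 10 counts. The 3 that rose, named after their values were seen, were FOSL1 (0.98), FOSL2 (0.25) and ATF3 (0.52). FOS, an immediate early gene, was called lower, at 183, 210.3 and 254 CPM in Control and 96.5, 98.7 and 104.8 CPM in KO (log2 fold change −1.11, edgeR adjusted p = 7.99e-07). Without Control 3, the highest library, FOS still fell, at −0.98, but was not called, nor was it with glmTreat. Of the 12 genes of SRF, its coactivators and targets, some of which share actin tension with YAP as an input, 8 fell and 1 rose (2 without Control 1), beside 20.9% and 20.7% of all genes, with a median of −0.55. The gene that rose was FILIP1L (0.63), again named after its values were seen. Of the 12 genes, 3 were called, all lower, where 7.14% of all genes were called lower. They were ACTA2, smooth muscle actin, from 826 ± 92.6 to 86.5 ± 5.30 CPM (−3.26, adjusted p = 3.13e-12), CNN1, calponin, from 280.2 ± 35.5 to 65.3 ± 0.712 CPM (−2.10, adjusted p = 3.76e-10) and MYOCD, myocardin, from 2.94 ± 0.211 to 0.720 ± 0.349 CPM (−2.03, adjusted p = 0.000677).

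**Figure D5:**
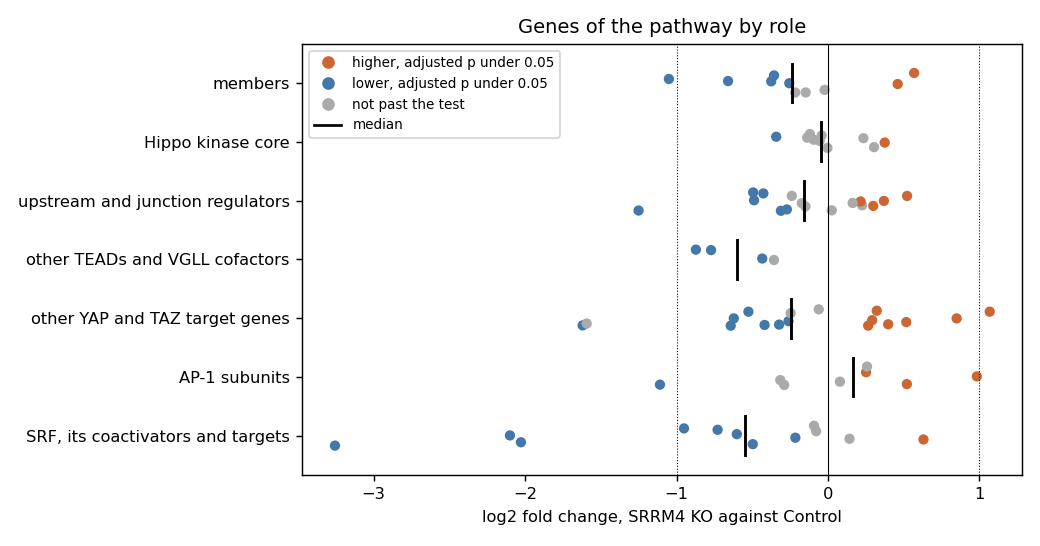
Log2 fold change of every tested gene of the 10 described here and of each pathway list, with the median as a bar and dotted lines at 1 in either direction. YAP and TAZ targets lie on both sides of 0, whereas the tested VGLL and other TEAD genes lie below it and the SRF list reaches −3.26.

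The cells were checked against their label by markers. NT5E, ENG, THY1, PDGFRB, VIM and COL1A1, markers of mesenchymal stem cells, had counts in every library, but their summed level ran from 28280 to 31650 CPM in Control and from 12930 to 14560 CPM in KO. Of the 6, 3 were called lower, where 7.14% of all genes were: COL1A1 (−1.23), PDGFRB (−2.14) and THY1 (−2.43). COL1A1 made most of the summed level, with a mean of 27881 CPM in Control and 11870.3 CPM in KO. Of the others, ENG fell (−0.34), while NT5E (0.52) and VIM (0.36) rose. Endothelial markers summed to 22.5 to 26.3 CPM in Control and 4.68 to 5.998 CPM in KO, with KDR (−1.60) and TEK (−3.80) called lower, while the defining markers PECAM1 and CDH5 had at most 3 and 1 counts in any library. Epithelial markers summed to 1.86 to 3.68 CPM in Control and 1.73 to 3.28 CPM in KO, with 0 of 2 tested past edgeR's test and 1 at an unadjusted p under 0.05. KRT19, which did not pass the filter on low counts, had 10, 9 and 19 counts in Control and 0 in every KO library, and DESeq2 called it lower. Hematopoietic markers summed to 20.8 to 22.6 CPM in Control and 20.5 to 23.1 CPM in KO, with CD3E at 0 and PTPRC at no more than 2 counts in any library. CD14 made most of this sum, with a mean of 16.8 CPM in Control and 15.9 CPM in KO, and did not pass the test. LAPTM5 was called higher (1.07), where 5.45% of all genes were. The part of these differences in the values of the YAP and TEAD genes was not tested.

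Some of the genes share exonic bases with a neighbour, and the libraries did not keep strand. For YAP1 this was 9.97% of its exonic bases, shared with AP000942.2 on the opposite strand, for WWTR1 9.45%, shared with WWTR1-AS1, and for CCN2 8.34%, shared with AL133346.1. Of these neighbours, AP000942.2 had 0 counts in every library, and no library had more than 7 counts of WWTR1-AS1 or 14 of AL133346.1. Reads of the shared bases cannot be assigned to a strand.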

How the data were processed

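Non-stranded mRNA libraries (NEBNext Ultra) of 3 Control and 3 SRRM4 KO samples were sequenced, and the authors deposited raw read counts per gene. The submitters' processing notes name HISAT2 2.0.5, featureCounts 1.5.0-p3 and DESeq2; the genome build, annotation, counting strand setting and treatment of multiply mapped reads were not given in the sources used here. Gene coordinates in the table matched GENCODE 29 (GRCh38) for 58724 of 58735 genes.

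Counts were tested with edgeR 4.0.16 in R 4.3.3 (TMM, filterByExpr, quasi-likelihood, prior count 0.125, Benjamini-Hochberg over 15341 genes), without covariates. The study's methods gave no test for single genes. CPM used TMM-scaled library sizes. Alternatives were DESeq2 1.42.0, other scalings and filters, glmTreat, a replicate block and leaving out each library. Scripts were tested on simulated data.

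The genes and pathway lists were chosen with earlier results of these data known. Named in the text were the 10 genes, 9 paralogs and regulators whatever their result, up to 5 called genes per direction of each other list, and the 3 genes most correlated with YAP1 and with CCN2; some of these are not reported here. Further genes behind small counts were named after their values were seen, as said beside them. Sequences came from RefSeq (GRCh38.p14). The main test did not pair the samples by replicate number, and the labels do not say whether the numbers mark pairs.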

Additional observations from a re-analysis of the deposited data

How the results depend on the processing

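Under 12 alternatives with a test at no fold, 116 of 120 fold changes of the 10 genes kept their direction and their side of the threshold. The others came from leaving out a library: YAP1 without KO 1 (−0.24) or KO 2 (−0.26), TEAD3 without Control 1 (−0.23), and AJUBA, which ran from −0.068 to 0.005, with 0.005 without Control 3. With glmTreat, which tests against a fold of 2, the calls went to 0 for the 10 genes and for the upstream regulators lower, other targets higher and AP-1 lower, also with 0 at an unadjusted p under 0.05, and to 360 higher and 577 lower over all genes (836 and 1096 before); fewer pass by its construction. Upper quartile scaling gave 2 upstream regulators that rose (4 before) and 2 AP-1 genes that fell (1 before), as did no filter and a minimum of 10 counts for AP-1. Leaving out each library gave 1 to 3 kinase core genes that rose and 1 to 2 that fell, 1 to 4 upstream regulators that rose, 1 to 3 AP-1 genes that fell, 0 to 1 AP-1 genes called in either direction, 1 to 2 other targets called lower and 1 to 2 SRF genes that rose. Without the division by length, family shares moved for every paralog family, as given for the TEADs. The cause of these shifts was not tested.

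Same-numbered libraries did not all deviate together (r = −0.11, 0.13 and −0.14), and not every library correlated best with its own number. With so few libraries per group, these values cannot exclude a pairing by number. A replicate block gave 842 genes called higher and 1093 lower, left 2 of the 10 genes that rose and 5 that fell, and gave −0.25 for YAP1, while AMOTL1 no longer passed the test (adjusted p = 0.0932). The lowest count of the 10 genes in any library was 1542; what depth or the number of libraries could resolve was not tested.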

Other observations

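Among the genes whose log2 CPM followed YAP1 most closely over the 6 libraries, of 13658 candidates with a mean of at least 1 CPM, were TTC21B and ATF6, each with a Pearson correlation of 0.997. TTC21B, a part of the ciliary transport machinery, stood at a mean of 26.9 CPM in Control and 21.2 CPM in KO. ATF6, a sensor of endoplasmic reticulum stress, stood at 93.8 and 75.2 CPM. For CCN2 the closest were CYB5A, a cytochrome b5, ZNF3, a zinc finger gene, and AC025171.2 (0.999 for the latter pair and over 0.999 for CYB5A). CYB5A stood at 23.4 CPM in Control and 4.34 CPM in KO. The 6 points form 2 groups, so that these values describe likeness in these libraries, with no p.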
